A study of Mus musculus with 4 samples.

Results

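Wide MyoD peaks found in both of the study's peak lists are described here. The distinct peaks of each list were compared, a pair was called shared where a peak of the list labelled with pyruvate overlapped a peak of the list labelled without pyruvate by at least 1 base, and a shared pair was kept where both peaks were 400 bases or wider. The rule kept 672 of 8592 shared pairs (7.82%). They held 671 of the 11907 peaks of the list with pyruvate (5.64%) and 672 of the 19338 peaks of the list without pyruvate (3.48%).

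The study mapped MyoD by chromatin immunoprecipitation and sequencing in myotubes, the multinucleated cells that form when myoblasts fuse. Both groups were C57BL/6 cells: primary myoblasts taken from mice 2 weeks old were differentiated for 5 days, and the myotubes then spent 24 hours in medium with pyruvate or in medium without it. Each group had 1 library made with the MyoD antibody SC-760 and 1 input library without antibody, 4 samples in all, and the inputs were not analysed here. With 1 library per group no difference has a replicate check, so no p-value is given, and read depth is unknown. The sample titles are the one source for which group a list belongs to, and an abbreviation in the deposited names can be read as the opposite condition.

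MyoD is a basic helix-loop-helix transcription factor that binds DNA as a dimer with an E protein such as those encoded by Tcf3, Tcf4 and Tcf12. The dimer recognises E-boxes, short sites of the form CANNTG, and in muscle cells it prefers CAGCTG and CAGGTG. In differentiating muscle it switches on genes of the contractile apparatus, the neuromuscular synapse and cell fusion, and it is also known to bind many sites far from promoters. The width of a called peak can grow with the number of sites close together and with signal, and it also depends on depth, fragment length and the caller. The deposited columns for fold enrichment held no usable value, so width was the single measure left per peak.

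The sequences of a few promoters are shown for genes with a wide pair at the start. A wide pair touched the 250 bases before a located gene start at 18 genes, of which 9 matched the RefSeq promoter table. The promoters of 5 of these are shown as examples with an E-box, chosen after the matches were seen. The pair covered 159 to 250 of those bases in the deposited gene models. Each is the 250 bases before the RefSeq start in build GRCm38.p6, 5′ to 3′ on the strand of the gene, with every CANNTG in capitals. The peaks are in build mm9, and the start sites were not matched across builds.
Mrln, chr10:70204414-70204663, plus strand: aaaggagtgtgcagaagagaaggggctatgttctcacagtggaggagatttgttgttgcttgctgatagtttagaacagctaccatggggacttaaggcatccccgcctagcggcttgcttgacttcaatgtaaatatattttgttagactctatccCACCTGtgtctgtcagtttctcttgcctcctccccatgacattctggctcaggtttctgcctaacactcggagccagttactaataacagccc
Mlycd, chr8:119394644-119394893, plus strand: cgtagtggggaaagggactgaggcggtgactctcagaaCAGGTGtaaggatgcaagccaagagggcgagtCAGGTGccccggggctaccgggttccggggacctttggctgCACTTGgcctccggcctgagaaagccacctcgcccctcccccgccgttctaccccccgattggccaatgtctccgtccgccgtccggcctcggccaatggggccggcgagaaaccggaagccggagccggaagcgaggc
Cenpj, chr14:56571847-56572096, minus strand: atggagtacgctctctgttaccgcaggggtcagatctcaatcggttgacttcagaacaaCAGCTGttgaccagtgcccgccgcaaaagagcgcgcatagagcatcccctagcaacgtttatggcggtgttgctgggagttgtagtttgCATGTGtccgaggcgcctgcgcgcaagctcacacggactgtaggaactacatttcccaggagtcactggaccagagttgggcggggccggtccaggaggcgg
Pkm, chr9:59656326-59656575, plus strand: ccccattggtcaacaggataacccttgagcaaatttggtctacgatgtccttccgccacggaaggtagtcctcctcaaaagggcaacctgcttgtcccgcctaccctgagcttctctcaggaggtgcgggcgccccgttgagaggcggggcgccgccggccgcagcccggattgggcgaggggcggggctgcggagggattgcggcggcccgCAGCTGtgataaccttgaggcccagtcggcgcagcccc
Sh3glb1, chr3:144720170-144720419, minus strand: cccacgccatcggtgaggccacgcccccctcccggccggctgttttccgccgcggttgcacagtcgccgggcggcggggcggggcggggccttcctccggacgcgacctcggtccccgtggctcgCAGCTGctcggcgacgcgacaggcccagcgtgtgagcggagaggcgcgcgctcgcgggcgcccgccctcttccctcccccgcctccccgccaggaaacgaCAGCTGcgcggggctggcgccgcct

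Mrln, listed in the files as 2310015B20Rik, encodes myoregulin, a small membrane protein of muscle that inhibits the calcium pump of the sarcoplasmic reticulum. Its pair, chr10:69667169-69667821 with pyruvate, was 652 bases wide with pyruvate and 666 bases without, and its centre lay 68 bases downstream of the listed start. Mlycd encodes malonyl-CoA decarboxylase, which relieves the block on fatty acid entry into mitochondria, and its pair measured 610 and 555 bases. The promoter of Mlycd held CAGGTG at 2 places and CACTTG at 1.

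Pkm, listed as Pkm2, encodes the pyruvate kinase that forms pyruvate at the last step of glycolysis. Its pair, chr9:59503853-59504352, measured 499 bases with pyruvate and 549 without, and its centre lay 280.5 bases upstream of the listed start. The first of the 2 Pkm promoters in the table held 1 CAGCTG, and the second held no CANNTG. Cenpj, a centriole assembly gene, had a pair of 541 and 545 bases. Sh3glb1, which encodes a membrane-bending protein of autophagy, had a pair of 431 and 492 bases; its second promoter in the table held no CANNTG.

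CANNTG was found in at least 1 promoter of each of the 9 matched genes (95% exact interval 66.4 to 100), beside 69.3% of the 27025 genes of the table. This motif reads the same on both strands, so each site counts once. CAGCTG occurred at 4 of the 9 (44.4%, 13.7 to 78.8), beside 14.7% of all genes. CAGGTG, or CACCTG on the other strand, occurred at 5 of the 9 (55.6%, 21.2 to 86.3), beside 19.4% of all genes. A gene counts if any of its promoters holds the motif. Foxp1, 1 of the 5, held CACCTG in its promoter at chr6:99028299-99028548 and not in that at chr6:99520994-99521243. Which Foxp1 promoter lies at the pair was not tested. At 4 of the 9, as for CAGCTG, the interval contains 19.4%. Counted over the 13 promoters of these genes, CANNTG was in 11 (84.6%, 54.6 to 98.1, beside 66.2% of all promoters) and CAGCTG in 4 (30.8%, 9.09 to 61.4, beside 13.0%). CAGGTG or CACCTG was in 5 (38.5%, 13.9 to 68.4, beside 17.2%). Each of these intervals over promoters contains the share of the table. The median GC content was 62.0% over these 13 promoters and 52.4% over the table, and its part in these shares was not tested.

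The members were selected on overlap and width, so these values are given as a description. The median width was 498 bases with pyruvate (quartiles 442 and 566) and 519 bases without (460 and 591). Both peaks reached 500 bases in 244 pairs, 600 in 83 and 1000 in 2. Just inside the minimum were a pair of 400 and 404 bases in Kif16b and pairs of 400 and 507 and of 400 and 530 bases in no gene region. Just outside it by 1 base were pairs of 429 and 399, 399 and 433, and 399 and 606 bases.

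Peaks of a pair largely covered each other. At the median, the shared stretch took in 97.3% of the peak with pyruvate and 93.0% of the peak without, and in 290 pairs it took in at least 90% of both. The centres lay 21 bases apart at the median, beside 17.5 bases for the 7920 narrower shared pairs. The peak without pyruvate was the wider one in 404 pairs, the peak with pyruvate in 258, and 10 pairs were equal. The difference, without minus with, had a median of 17.5 bases, with quartiles of -32 and 70, and 30 pairs had a width ratio over 1.5. Differences in depth and in binding cannot be told apart here. One peak with pyruvate of 1070 bases, at Tmem120b, overlapped 2 wide peaks without pyruvate of 480 and 443 bases and so entered 2 pairs.

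Not every wide peak had a wide partner. Of the 1218 peaks of at least 400 bases with pyruvate, 671 (55.1%) were in a wide pair, 407 had a partner under 400 bases and 140 had none. Of the 1794 without pyruvate, 672 (37.5%) were in a wide pair, 831 had a narrower partner and 291 had none. The longer list thus had more wide peaks that were narrow or absent in the other.

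**Figure D1:**
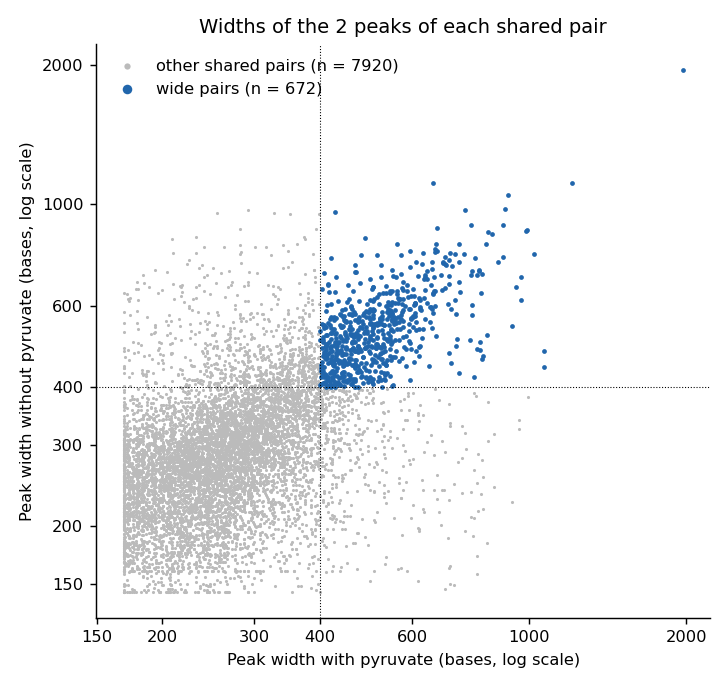
Width of the peak without pyruvate (vertical axis, bases, log scale) against the peak with pyruvate (horizontal axis, bases, log scale) for every shared pair; blue points are the 672 wide pairs, grey points the 7920 others, and dotted lines mark 400 bases. The pair in Igf2bp3, at 1967 and 1954 bases, stands alone at the upper right.

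The widest pair, chr6:49085808-49087775 with pyruvate, lay in the body of Igf2bp3 and measured 1967 bases with pyruvate and 1954 without. Igf2bp3 encodes an RNA-binding protein that binds Igf2 messenger RNA and is best known from embryonic tissue. The next widest pair, chr6:91569593-91570802, measured 1209 and 1109 bases and lay in no listed gene region. Both were wide to nearly the same extent in the lists, and these were the 2 pairs in which both peaks exceeded 1000 bases.

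The other widest pairs in genes lay at genes of varied function. Plec, which encodes plectin, a linker of desmin filaments to the Z-disc and membrane, had a pair of 989 and 872 bases and another of 565 and 622 bases. The pair in the body of Samm50, which encodes the sorting and assembly machinery of the outer mitochondrial membrane, measured 757 and 970 bases. Lama5, which encodes a laminin chain of the basement membrane, had a pair of 1025 and 780 bases whose centre lay 1953.5 bases upstream of the start. The pair at Susd1 measured 912 and 1046 bases, and that at a gene listed only as ENSMUSG00000086899 measured 903 and 976 bases. Lama5 and Samm50 differed in opposite directions between the lists.

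By position, 331 of the 672 wide pairs (49.3%, 45.4 to 53.1) lay in a gene body more than 2 kb from a start. Another 258 (38.4%, 34.7 to 42.2) lay in no gene region, and 79 (11.8%, 9.42 to 14.4) were promoter-proximal. Proximal means within 2 kb of a located start, as at 44 of the 79, or in a 2-kb flank for which the files do not show the side, as at the other 35. Among the narrower shared pairs 14.4% were proximal (13.6 to 15.2), 47.3% lay in bodies and 37.5% in no region. The intervals for proximal pairs overlap, and those for bodies and for no region do too.

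The proximal share was already lower below the 400-base minimum. It was 15.5% among shared pairs whose smaller width was under 200 bases, 14.6% from 250 to under 300 bases and 11.7% from 300 to under 400 bases. From 400 to under 500 bases it was 11.7%, from 500 to under 600 bases 12.4%, and from 600 bases on 10.8%, which rests on 9 of 83 pairs (5.08 to 19.6). Within gene bodies the wide pairs lay a median of 36178 bases from the start, and the narrower pairs 34146 bases. They lay at 46.2% and 45.6% of the body's length, so the medians were close. Exons and introns could not be told apart, since the deposited files list bodies and flanks alone.

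**Figure D2:**
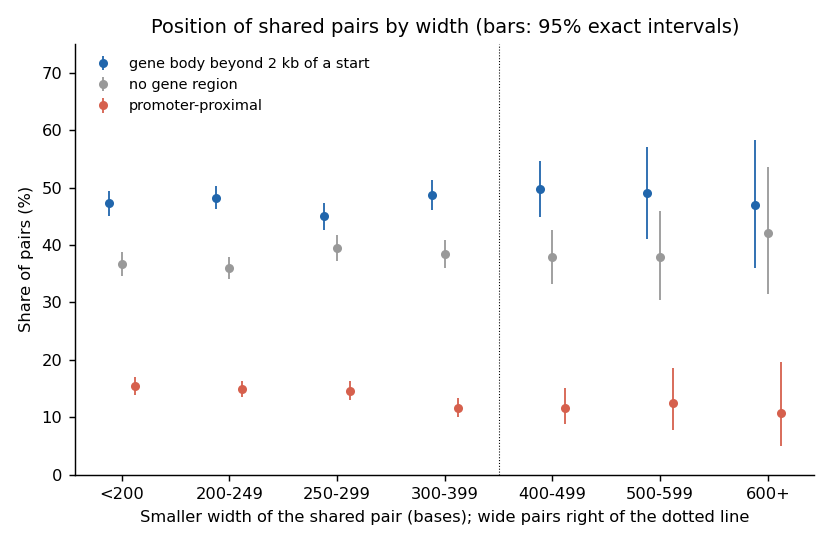
Share of shared pairs (vertical axis, percent) in gene bodies, in no gene region and promoter-proximal, by the smaller width of the pair in bases (horizontal axis); points are shares, bars 95% exact intervals for counting error only, and wide pairs lie right of the dotted line. The promoter-proximal share is 15.5% at the narrowest widths and between 10.8% and 12.4% from 400 bases on.

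Wide pairs lay closer to other peaks than narrower pairs did. With pyruvate, 341 of 671 wide-pair peaks (50.8%, 47.0 to 54.7) had another peak of the same list within 10 kb, edge to edge, beside 36.9% of the other shared peaks (35.8 to 38.0) and 40.8% of peaks with no partner. Without pyruvate the shares were 58.3% (54.5 to 62.1), 46.1% (45.0 to 47.3) and 38.7%. The median gap to the nearest other peak was 9441 bases for wide pairs and 20491 bases for other shared peaks with pyruvate, and 7376 and 11975 bases without. The intervals for wide and narrower pairs do not overlap in either list. Peaks close together are not independent, so these intervals are narrower than the true error.

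Most of the neighbours were themselves shared. A wide pair had 0.838 neighbours within 10 kb with pyruvate and 1.01 without, beside 0.547 and 0.728 for narrower pairs. Of the neighbours of wide pairs 76.5% had a partner in the other list with pyruvate and 64.5% without, and for narrower pairs 73.9% and 56.4%. At least 3 neighbours lay around 7.90% of wide pairs with pyruvate and 11.5% without, beside 3.53% and 5.75% of narrower pairs.

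**Figure D3:**
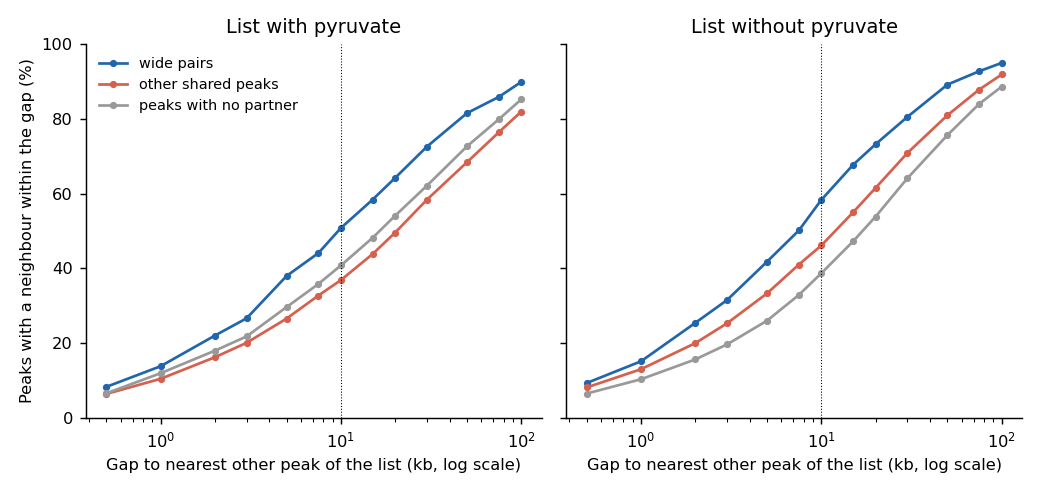
Cumulative share of peaks (vertical axis, percent) with another peak of the same list within a given gap (horizontal axis, kb, log scale), with pyruvate on the left and without on the right; lines are wide pairs, other shared peaks and peaks with no partner, and the dotted line marks 10 kb. The wide pairs lie highest in both lists, at 50.8% and 58.3% at 10 kb.

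Few wide pairs stood next to each other: 57 (8.48%) had another wide pair within 10 kb, in 28 groups, and 1 group held 3 pairs. Among the 28 is the group at Tmem120b, which is 1 peak with pyruvate and its 2 partners. Of all neighbours of wide pairs, 10.3% with pyruvate and 8.84% without were in a wide pair themselves, beside 8.62% and 6.58% of the neighbours of narrower pairs. The group of 3 lay in Cdh15, which encodes M-cadherin, the adhesion molecule of satellite cells and myoblasts. From the start inward its wide pairs measured 479 and 421, 430 and 474, and 591 and 593 bases, centred 1492.5, 2896 and 3876 bases downstream of the start. A narrower pair of 348 and 326 bases lay nearer the start, and all 4 peaks of the gene in each list were paired. Among the other groups, Zfp568, a zinc finger gene, held pairs of 780 and 715 and of 875 and 748 bases; it was named after its values were seen.

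A wide pair lay in the body or a flank of 414 of the 7235 genes the files name (5.72%, 5.20 to 6.28), and a promoter-proximal one at 86 (1.19%). Of the 3778 genes with any shared pair, 11% had a wide one. The share followed the number of shared pairs in the gene: 5.64% of genes with 1 shared pair had a wide one, 14.8% with 2, 27.5% with 3 or 4 and 44.7% with 5 to 9. It also rose with body length, from 3.95% of genes with a listed body of up to 19875 bases to 9.35% of those with a body of 111825 bases or more. Most genes (372) had 1 wide pair, 32 had 2 and 10 had at least 3.

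Sorcs2, which encodes a sorting receptor of the VPS10 family, had 4 wide pairs among 8 shared pairs. They measured 828 and 820, 639 and 611, 409 and 428, and 695 and 739 bases. The first 3 lay between 20186 and 41268.5 bases from the start, and the last 328181.5 bases from it. Sorcs2 also had 8 peaks without pyruvate and 2 with it that had no partner. Each of its 4 wide pairs differed by under 50 bases between the lists.

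RNA-binding proteins were among the genes with 3 wide pairs. Rbm20, a splicing regulator of titin, had pairs of 634 and 694, 464 and 481, and 448 and 484 bases, each wider without pyruvate. Msi2, a Musashi protein that controls translation in stem cells, had pairs of 597 and 563, 537 and 508, and 495 and 582 bases. These were spread over 113124.5 to 208911 bases from the start of a gene of 426943 bases.

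The other 6 genes with at least 3 are given by their counts. The septin 9 gene (printed as 9-Sep in the files), which encodes a cytoskeletal GTPase, had 3 among 9 shared pairs. Agap1, an Arf GTPase-activating protein of membrane traffic, had 3 among 7, and Bri3 had 3 among 6. Fgfr2, a fibroblast growth factor receptor, had 3 among 18 over a listed region of 3009 kb. Their peaks with pyruvate were centred 451, 767 and 2389 kb from the listed start. Whether these far-apart pairs lie in Fgfr2 itself was not tested, so its count rests on the listed region. The predicted gene Gm20388 had 7 over a listed region of 4435 kb that takes in Cdh15 and its 3 pairs. ENSMUSG00000066418 had 3 and shares sites with Tmem120b. Its count takes the 1070-base peak with pyruvate separately with each of its 2 partners, of 480 and 443 bases, and reaches 3 only in this way.

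**Figure D4:**
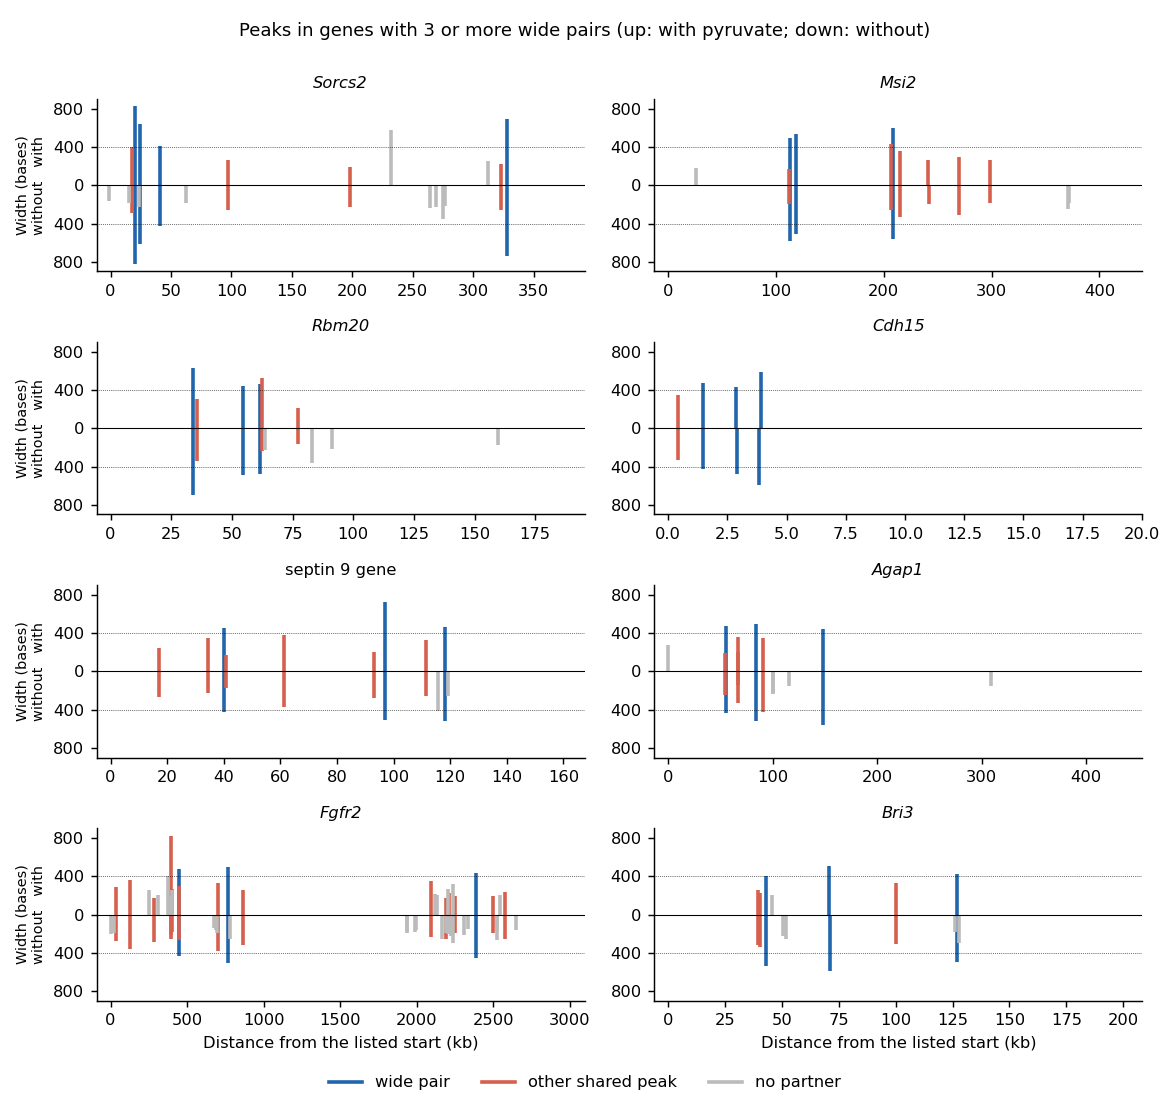
Peaks in 8 of the 10 genes with at least 3 wide pairs, by distance from the listed start (horizontal axis, kb) and width in bases, upward with pyruvate and downward without; blue bars are wide pairs, red bars other shared peaks and grey bars peaks with no partner, with dotted lines at 400 bases. Cdh15 has the centres of its 3 wide pairs between 1492.5 and 3876 bases from the start, and Sorcs2 has its 4 centres spread to 328181.5 bases. Fgfr2 is drawn over its listed region of 3009 kb.

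Lists of 501 genes were compared with this background. The files name 291 of them, and 33 of these (11.3%) had a wide pair, beside 5.72% of all named genes. Of the 201 with any shared pair 16.4% had a wide one, beside 11% of all such genes. The lists were chosen with earlier results of these data known, so these shares, and those of each list below, are a description only. Members differ in length and in number of peaks, whose part in these shares was not tested. The median smaller width of a gene's widest shared pair was 307 bases for the myogenic regulators and for the sarcomere genes, 338 bases for the synapse genes and 256 bases over all genes.

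Among transcription regulators of myogenesis, 5 of 26 named members had a wide pair (19.2%, 6.55 to 39.4). The E protein genes Tcf4 and Tcf12, which encode dimer partners of MyoD, were among them, with pairs in the gene body of 652 and 597 bases and of 431 and 424 bases. The third, Tcf3, is not named in the files. Id1, whose product binds E proteins and keeps them from MyoD, had a proximal pair, chr2:152560607-152561156, of 549 and 578 bases. Smarcd3, the BAF60c subunit of the chromatin remodeller that MyoD recruits, had a pair of 449 and 504 bases with its centre 1592.5 bases downstream of the start. Tead4, a muscle factor of the Hippo pathway, had one of 648 and 555 bases in its body.

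The myogenic factor genes themselves had no wide pair. Myog, which encodes myogenin and is a textbook target of MyoD, had a shared pair of 529 bases with pyruvate and 351 without, which fell under the minimum in 1 list. Myod1, Myf5 and Myf6 had no listed peak in a body or flank. Csf3, the gene of the cytokine in the study's title, had 1 peak, without pyruvate and without a partner.

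Genes of the neuromuscular synapse had wide pairs at 3 of 13 named members (23.1%, 5.04 to 53.8). Dok7, the adaptor that activates the kinase MuSK, had a pair, chr5:35397336-35398061, of 725 and 781 bases centred 1763.5 bases upstream of its start. Chrna1, the muscle acetylcholine receptor alpha subunit, had a pair, chr2:73417339-73417961, of 622 and 618 bases centred 742 bases downstream of the start. Colq, the collagen tail that anchors acetylcholinesterase, had a pair of 442 and 446 bases in a stretch that also belongs to Hacl1. At these 3 genes the peaks of a pair differed in width by 4 to 56 bases.

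In excitation-contraction coupling, 3 of 30 named members had a wide pair (10%, 2.11 to 26.5). Ryr3, a calcium release channel, had one of 706 and 670 bases in its body. Cacng1, the gamma subunit of the muscle calcium channel, had one of 470 and 518 bases centred 1983 bases downstream of the start. Nfatc2, a transcription factor released by calcineurin, had one of 424 and 457 bases. Ryr1, the main release channel of skeletal muscle, had a shared pair of 756 bases with pyruvate and 319 without, so it was not a member.

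Sarcomere genes had wide pairs at 2 of 41 named members (4.88%, 0.596 to 16.5), close to the 5.72% of all named genes. At a minimum of 300 bases the count was 16 of 41, beside 16.7% of all named genes. Neb, which encodes the thin filament ruler nebulin, had one of 411 and 482 bases, and Mypn, which encodes the Z-disc protein myopalladin, one of 521 and 566 bases. Shared pairs at Des (315 and 280 bases), Ttn (349 and 337 bases) and Acta1 (209 and 165 bases) were narrower. Ckm, the muscle creatine kinase gene, had 1 peak, with pyruvate and without a partner.

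Membrane, fusion and adhesion genes had wide pairs at 6 of 38 named members (15.8%, 6.02 to 31.3). Besides Cdh15 and Plec they included Ncam1, a neural cell adhesion molecule also found on young myofibres, with pairs of 424 and 450 and of 407 and 708 bases. Syne1, which encodes nesprin-1 of the myonuclear envelope, had a pair of 635 and 701 bases, 494195.5 bases from the start of its body. The spectraplakin genes Dst and Macf1, which encode crosslinkers of the cytoskeleton, had pairs of 538 and 510 bases and of 402 and 447 bases. The second Ncam1 pair was the one with the largest difference between lists in this group.

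Satellite cell and Notch genes had wide pairs at 5 of 24 named members (20.8%, 7.13 to 42.2). Met, the receptor of hepatocyte growth factor that acts in satellite cell activation, had one of 433 and 617 bases. Sdc4, a heparan sulphate proteoglycan of the satellite cell surface, had one of 459 and 577 bases. Cd82, a tetraspanin, had one of 411 and 463 bases, and Megf10, a receptor of satellite cells, one of 401 and 433 bases. In all 4 the peak without pyruvate was the wider, which was also the more common direction, in 404 of all 672 wide pairs. Fgfr4, a fibroblast growth factor receptor, had one of 440 and 451 bases in its flank, and a second wide pair of 838 and 871 bases lay 607 bases beyond that flank.

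Secreted factors and receptors had wide pairs at 4 of 23 named members (17.4%, 4.95 to 38.8). This count includes Igf2bp3, an RNA-binding protein that is neither and that was put on the list with earlier results known. Without it and Igf2bp2 the count was 3 of 21. Igf2r, which clears Igf2 from the cell surface, had one of 556 and 506 bases. The insulin receptor gene Insr had one of 501 and 493 bases, and Wnt9a, a Wnt ligand, one of 418 and 562 bases centred 1364 bases downstream of its start. Among axon guidance genes Ntn1, which encodes netrin-1, was the 1 member of 25, with 411 and 425 bases.

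In metabolism, glycolysis and glycogen genes had wide pairs at 2 of 20 named members (10%, 1.23 to 31.7), Pkm2 and Pgm2. Pgm2, a phosphoglucomutase gene, had one of 439 and 454 bases in its body. Of the 10 named genes of pyruvate handling and the citrate cycle 0 had one, which allows a share of up to 30.8%, and 4 had any shared pair. Of the 11 named respiratory chain and regulator genes 1 had one, Ppargc1b, a coactivator of mitochondrial genes, with pairs of 513 and 497 and of 497 and 434 bases.

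The marker lists of other cell types were small here. Wide pairs were found at 0 of 13 named fibroblast genes, 0 of 7 blood and endothelial genes, 0 of 3 liver genes and 0 of 3 ribosomal protein genes, and at 1 of 4 neuron genes, the splicing factor gene Rbfox3 (573 and 658 bases). The endothelial genes Tek, Vwf, Pecam1 and Cdh5 and the macrophage gene Cd68 had narrower shared pairs. The widest of each gene measured 361 and 369 bases in Tek, 341 and 469 in Vwf, and 291 and 326 in Pecam1. Among muscle genes, Chrna1, Dok7, Myog, Des, Acta1, Ttn and Ryr1 had peaks in both lists, and Myod1, Myf5 and Myf6 had none. Ckm, Myh3, Actc1 and Tnni1 had peaks with pyruvate only. Nebl, Clcn1, Casq2 and Id2 had peaks without pyruvate only. These genes with peaks in a single list are examples. Among markers of other cell types, Col3a1, Dpt, Tubb3, Nefm and Syn1 had peaks without pyruvate only. Col1a1, Pdgfra, Kdr, Adgre1 and Csf1r had no listed peak. A shared pair of any width lay at 6 of the 13 fibroblast genes and 5 of the 7 blood and endothelial genes. The counts were 1 of the 4 neuron and 0 of the 3 liver genes, beside 3778 of all 7235 named genes. Some markers of other cell types were thus in both lists as well, and these peaks do not separate muscle from other cells. Peak lists hold no expression value, so the makeup of the cultures was not measured.

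**Figure D5:**
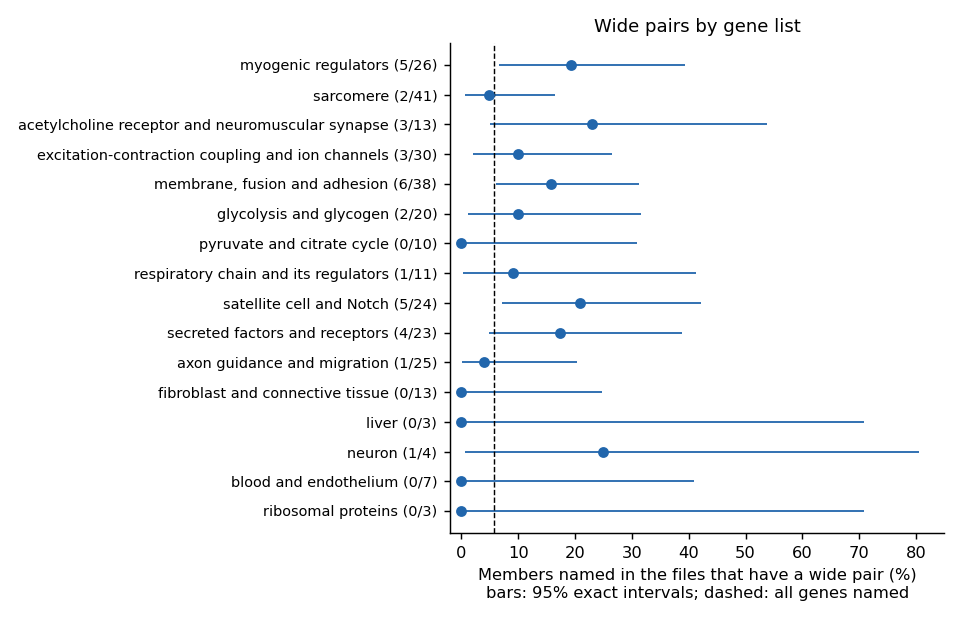
Share of the members named in the files that have a wide pair (horizontal axis, percent) for 16 gene lists; points are shares, bars 95% exact intervals for counting error only, numbers in brackets the count over the named members, and the dashed line all named genes at 5.72%. The neuron list (1 of 4) lies highest at 25%, the synapse, satellite cell and myogenic regulator lists lie between 19.2% and 23.1%, and the intervals of the neuron and synapse lists contain 5.72%. The lists were chosen with earlier results of these data known.

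The 258 wide pairs classed in no gene region lay a median of 63385.5 bases from the nearest region of a gene with a symbol. Of these, 33 lay within 10 kb of one and 92 over 100 kb away. Only genes that have a peak in the files could be the nearest one, so a nearer gene with no peak would not be seen. One more pair touched no listed region but was counted as proximal, since a located start lay within 2 kb of it, at Wisp1. After the pair of 1209 and 1109 bases, which lay 129250 bases from Tmem43, the widest was chr7:74529904-74530798, of 894 and 902 bases. It lay 10160 bases from the region of Mef2a, which encodes a MADS-box factor that acts with MyoD on muscle genes.

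The other pairs outside gene regions among the 15 widest lay at various distances from a named gene. The pair chr3:55030458-55031453, of 995 and 880 bases, lay 15049 bases from Dclk1, a kinase gene of microtubules. The pair chr17:66310742-66311592, of 850 and 863 bases, lay 8215 bases from Twsg1, whose secreted product modulates BMP signalling. The pair chr13:55272727-55273565, of 838 and 871 bases, was that beside Fgfr4. A pair of 776 and 901 bases had Tcf7l2, a transcription factor gene of Wnt signalling, as its nearest named gene, at 20795 bases. For pairs of 894 and 766 and of 790 and 764 bases these were Meaf6 and Cnih3, at 96282 and 91939 bases.

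The wide pairs were spread over the chromosomes. They made up 6.01% of the shared pairs of chromosome 18 and 11.2% of those of chromosome 19 (7.65 to 15.5), the lowest and the highest share. The interval of every chromosome contained the overall 7.82%.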

How the data were processed

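Binding of MyoD was mapped in 2 ChIP libraries, 1 per condition, each with 1 peak list. The tools were MACS2 2.1.1, Bowtie2 2.1.0 and bcl2fastq 2.19 with build mm9, per the submitters' processing notes. The annotation, the calling threshold and the use of the inputs were not given in the sources used here. Per the file headers and values, the deposited tables hold coordinates of peaks and of the gene regions they touch, a region being a body or a 2000-base flank. The authors' column for fold enrichment held 0 values other than 0 or a dash, so neither fold nor q was used, and depth is unknown.

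The 13076 and 20902 lines were reduced to distinct peaks. Width is end minus start, and coordinates are printed as deposited. Gene IDs (7262) were pooled by symbol to 7235 genes, 1088 of them without a symbol, and starts were located for 5774 from a listed body and strand. Shares carry 95% exact (Clopper-Pearson) intervals, which cover counting error only. Members and gene lists were chosen with earlier results of these data known. Genes were named by a rule: the 15 widest pairs, genes with at least 3 wide pairs, up to 6 members per list, 3 pairs on each side of the minimum, the 5 widest pairs in no gene region, and a set of muscle genes with Csf3 and Igf2bp3; others, such as the promoter genes, Zfp568 and the genes compared as narrower or as markers, were chosen after their values were seen. RefSeq promoters were of GRCm38.p6, of which the 250 bases before the start were used; 355 of the 360 genes with a symbol and a wide pair matched a RefSeq symbol. Motifs at the peaks themselves were not searched, as no genome of build mm9 was used here. Scripts were tested on simulated data. Computation used scipy 1.17.1, pandas 2.3.3, numpy 2.4.6 and, for plots, matplotlib 3.10.9 under Python 3.11.15. Alternatives covered width, overlap, start-site and neighbour windows.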

Additional observations from a re-analysis of the deposited data

How the results depend on the processing

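No paired analysis was possible because each condition had 1 library and no test was run. Of the main values under the alternatives, 42 moved by less than their error and 25 moved further. The changes in number follow from the settings themselves, which admit more or fewer pairs. At a width minimum of 300 bases there were 2174 pairs, 1205 genes and 92 list members, and the shares with a neighbour were 44.8% with pyruvate and 52.7% without, 9.18 and 7.49 percentage points above the narrower pairs. At 500 bases there were 244 pairs, 154 genes and 14 list members. With 1 peak of 400 bases sufficing there were 1975 pairs, 1048 genes and 83 list members, and 46.2% had a neighbour with pyruvate. Counting only starts located within 1 kb, 4.17% were proximal; within 10 kb, 23.5% were proximal and 39.7% in bodies. With a neighbour window of 5 kb the shares were 38.0% and 41.8%, and with 50 kb 81.5% and 89.1%, the latter 8.19 points above narrower pairs. Proximal pairs alone gave 86 genes. With partnered neighbours only, 42.6% and 42.4% had one; this setting, centre distances and leaving out gene regions over 1 Mb were chosen after seeing the data. The excess of neighbours at wide pairs was above 0 in 16 of 16 differences, from 7.49 to 15.3 points. Of the other values, 60 stayed within the same kinds of limit and 49 did not. Depth, unknown here, limits which peaks reach 400 bases.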

Other observations

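A few loci outside the naming rule are given as values, chosen after they were seen. Hes1 and Heyl encode transcriptional repressors of the Notch pathway. A group of pairs of 484 and 574 and of 454 and 536 bases lay 4856 and 7169 bases from the region of Heyl. Another group, of 476 and 540 and of 473 and 520 bases, lay at ENSMUSG00000086897, 53133 and 52333 bases from the region of Hes1. Runx1, a transcription factor gene, was the nearest named gene of 3 wide pairs, of 704 and 757, 594 and 731, and 549 and 718 bases, which lay 278887, 178420 and 75732 bases from it. In each of these 7 pairs the peak without pyruvate was the wider, as it was in 404 of all 672 wide pairs. Igfbp5, whose product binds insulin-like growth factors, was nearest to 3 pairs, of 598 and 633, 571 and 777, and 511 and 486 bases.

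By the pathway labels in the authors' deposited tables, 114 of 2103 annotated genes (5.42%) had a wide pair. Endocytosis held the most, 11 of 115 genes (9.57%, 4.87 to 16.5), among them Agap1, Igf2r, Met and Smad3. The label for cell adhesion molecules held 6 of 52 (11.5%, 4.35 to 23.4), among them Cdh15, Ncam1 and Sdc4. Focal adhesion held 8 of 119 (6.72%, 2.95 to 12.8), among them Lama5 and Met. These 3 intervals contain the share of all annotated genes. The label for pathways of stem cell pluripotency held 7 of 52 (13.5%, 5.59 to 25.8), among them Fgfr2, Id1, Skil and Smad3. Its interval lies just above that share, but Fgfr2 counts there only through its listed region of 3009 kb. At 6 of 52, as for cell adhesion molecules, the interval contains the share. In all, 16 labels with at least 5 such genes were looked at.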
